A study of Homo sapiens with 8 samples.

Results

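The 10 genes described here encode proteins that read, use or remove trimethylation of lysine 9 on histone H3 (H3K9me3). They are the HP1 genes CBX1, CBX3 and CBX5, the corepressor gene TRIM28 (KAP1), the chromatin remodeller gene ATRX, and the H3K9 demethylase genes KDM3A, KDM4A, KDM4B, KDM4C and KDM4D. Every promoter window that carried one of these names was taken, which gave 16 of the 38157 windows in the tables, for 8 of the 10 genes. CBX5 had 5 windows, KDM4C had 3, CBX1 and KDM4A had 2 each, and TRIM28, ATRX, KDM3A and KDM4B had 1 each. No window was named CBX3 or KDM4D.

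The cells were SiHa, an established human line from a squamous carcinoma of the cervix, in which cells that had crossed a transwell membrane within 10 h (migrated) were collected apart from cells that had stayed behind (non-migrated). From each fraction, chromatin immunoprecipitated (ChIP) with an antibody to H3K9me3 and input chromatin without antibody were sequenced, in 2 paired replicate sets. The 4 groups were therefore H3K9me3 and input of migrated cells and H3K9me3 and input of non-migrated cells, with n = 2 libraries each and no other treatment or allele. Both sets were made from the same line. The series title poses the question of a chromatin state low in SUV39H1, a methyltransferase that writes the mark, in migratory cells.

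H3K9me3 is bound by the chromodomain of HP1 proteins, which compact the chromatin they occupy. TRIM28 is brought to DNA by zinc finger proteins with a KRAB domain and recruits both HP1 and the methyltransferase SETDB1. KDM4 enzymes remove the third and second methyl groups from lysine 9, whereas KDM3A acts on the lower methylation states. The mark is best known at silenced repeats, satellite DNA and clusters of zinc finger genes, while promoters of housekeeping genes usually carry little of it.

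Set 1 was shallow, since its H3K9me3 libraries held 88028 reads in promoter windows for migrated cells and 164766 for non-migrated cells, against 984835 and 1137376 in set 2. The inputs held 388191 to 1729061 reads. Over the 16 windows together, the H3K9me3 libraries of migrated cells held 16 reads in set 1, with 9 windows at 0, and 201 reads in set 2. Those of non-migrated cells held 52 reads in set 1 and 255 in set 2. As RPM (reads scaled to the library's total in windows), these sums came to 182 and 204 in migrated cells and 316 and 224 in non-migrated cells, against 410 to 450 in the 4 inputs. The per-library values below therefore rest mainly on set 2, and in set 1 a value of 0 reads gives little information. The sets also differ in library kit, so kit and set cannot be told apart.

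The stretches upstream of 4 of these genes are shown because they belong to the windows with the least mark (CBX5 and KDM4B) and to windows near the input level (CBX1 and KDM3A). They are the 250 bases before 1 annotated start per gene in RefSeq (GRCh38.p14), the most upstream one, 5′ to 3′ on the gene's strand, with CG dinucleotides in capitals. The measured windows are in hg19 and were not converted, so the match is by gene name. CBX5 lies at chr12:54280123-54280372 on the minus strand, KDM4B at chr19:4968863-4969112 on the plus strand, CBX1 at chr17:48101187-48101436 on the minus strand and KDM3A at chr2:86441121-86441370 on the plus strand.
CBX5: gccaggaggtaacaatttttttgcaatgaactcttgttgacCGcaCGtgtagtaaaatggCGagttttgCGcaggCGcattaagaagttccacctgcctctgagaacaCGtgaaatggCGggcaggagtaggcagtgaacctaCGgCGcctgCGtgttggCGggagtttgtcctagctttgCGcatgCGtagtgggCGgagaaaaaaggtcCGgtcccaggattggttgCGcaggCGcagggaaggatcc
KDM4B: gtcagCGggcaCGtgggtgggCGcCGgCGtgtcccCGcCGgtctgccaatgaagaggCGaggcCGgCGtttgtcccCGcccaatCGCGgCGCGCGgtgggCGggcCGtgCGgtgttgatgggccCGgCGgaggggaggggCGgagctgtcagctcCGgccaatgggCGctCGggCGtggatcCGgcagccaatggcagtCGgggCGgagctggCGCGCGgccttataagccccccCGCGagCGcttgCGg
CBX1: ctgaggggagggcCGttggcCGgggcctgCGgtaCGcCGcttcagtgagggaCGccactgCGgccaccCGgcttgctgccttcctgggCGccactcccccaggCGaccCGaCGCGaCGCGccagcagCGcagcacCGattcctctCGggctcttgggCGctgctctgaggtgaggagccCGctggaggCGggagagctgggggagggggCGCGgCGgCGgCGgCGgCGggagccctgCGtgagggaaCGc
KDM3A: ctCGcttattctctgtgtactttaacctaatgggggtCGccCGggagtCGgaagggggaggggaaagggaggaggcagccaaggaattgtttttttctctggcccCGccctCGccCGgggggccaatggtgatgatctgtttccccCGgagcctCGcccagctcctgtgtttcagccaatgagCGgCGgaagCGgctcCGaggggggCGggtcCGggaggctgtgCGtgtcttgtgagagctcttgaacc

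The motif counted was CG, which reads the same on both strands. It occurred 17 times before CBX5, 36 times before KDM4B, 30 times before CBX1 and 16 times before this start of KDM3A, against a median of 11 over 35116 promoters of the same length. Of those promoters 4.85% held at least 36, 12.4% at least 30 and 41.0% at least 16. Thus both the windows with the least mark and those near the input level included a gene with a CG count far above the median. RefSeq also lists 2 starts further along CBX5, with 3 and 4 CG dinucleotides, and a second start of KDM3A with 24. The other members in the RefSeq table were KDM4A with 17, KDM4C with 21, CBX3 with 16 and KDM4D with 22.

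Across the 16 windows, 8 carried less H3K9me3 than input at an adjusted p under 0.05 (limma, Benjamini-Hochberg over 36440 windows, mean of both fractions) and 0 carried more. Of all tested windows 35.2% were lower by this test and 15.8% were higher. The median log2 of H3K9me3 over input was -0.93 over the 16 windows and -0.35 over all windows. This ratio is set relative to a centre fixed by trimmed-mean scaling (TMM), so 0 is that centre, which lies above the median window, and not equal amounts of DNA. The values ran from -3.83 at CBX5 to 0.40 at KDM3A. In order of level, no 2 neighbouring windows differed by more than 1.41 times their combined SE, so the order of adjacent windows is not resolved. This does not extend to windows far apart in the list, such as CBX5 (-3.83 ± 0.48) and KDM3A (0.40 ± 0.38). The lower windows belonged to CBX5 (3), KDM4A (2), KDM4B, TRIM28 and KDM4C, and all windows of CBX1, ATRX and KDM3A were among those that did not pass. On the gene's own strand 5 of 10 windows were lower, and on the opposite strand 2 of 4, both of CBX5. Of these 2, 1 shares 222 bases with the lower own-strand window of CBX5. TRIM28 and ATRX were not matched to a gene strand.

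**Figure D1:**
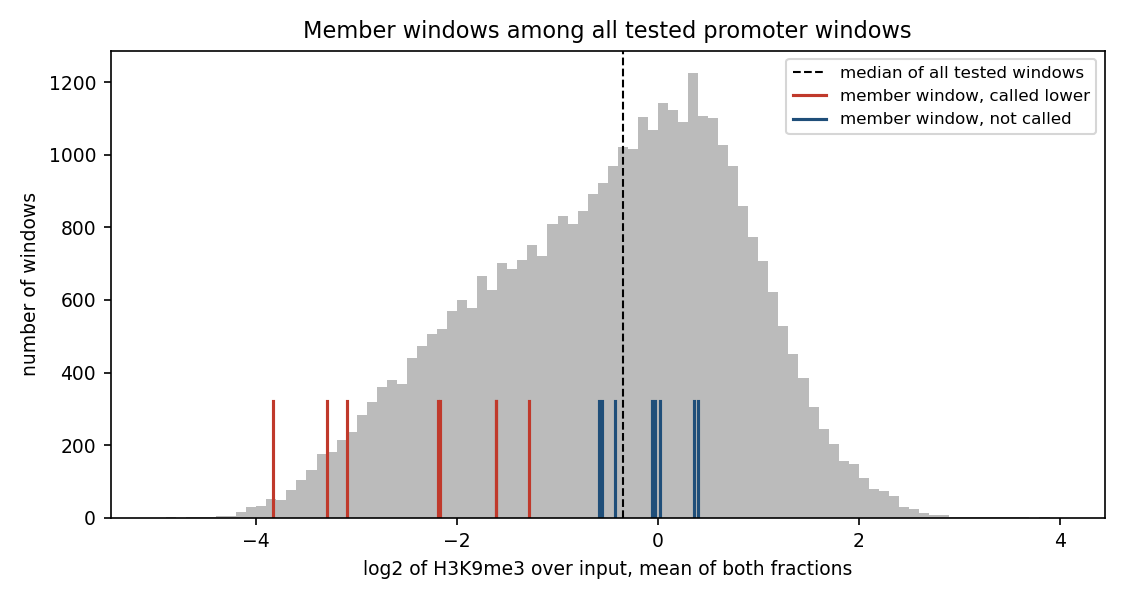
Distribution of log2 H3K9me3 over input (mean of both fractions) over the 36440 tested promoter windows, with the 16 windows of the HP1, KAP1, ATRX and H3K9 demethylase genes as vertical lines. The dashed line is the median of all windows (-0.35). The 8 red lines (adjusted p under 0.05) lie between -3.83 and -1.29, and the 8 blue lines (not passing) between -0.58 and 0.40.

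**Figure D2:**
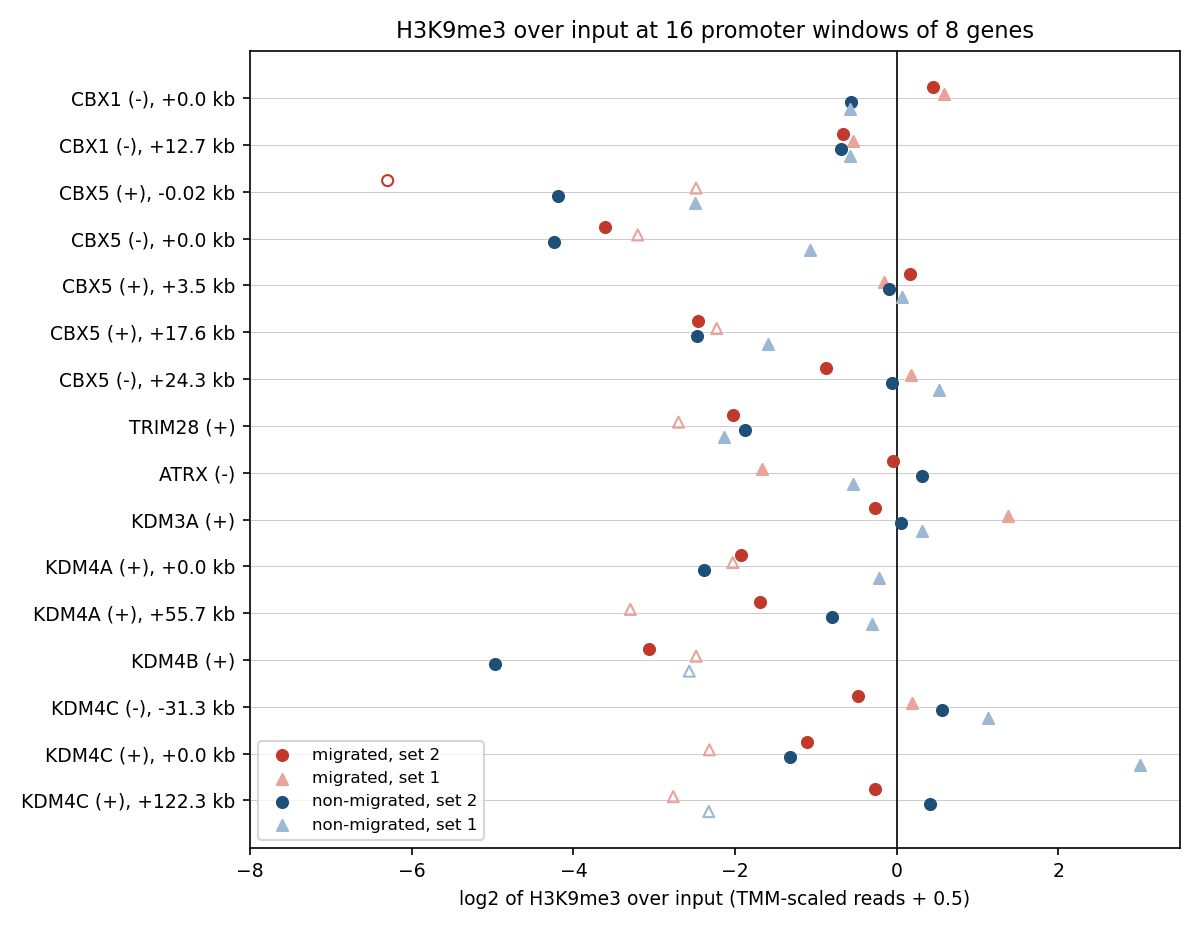
Log2 of H3K9me3 over input in each fraction and set for the 16 windows, with strand and distance downstream from the gene's first window on its own strand. Red is migrated and blue non-migrated, circles are set 2 and triangles set 1, and open symbols had 0 H3K9me3 reads, so that their position depends on the 0.5 added. In 8 windows all 4 values lie below 0, and the share of all tested windows for which this holds was not counted. These are not the same 8 windows as those called lower. They include the second CBX1 window, which did not pass, but not the KDM4C window 122 kb downstream, which did.

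Of the HP1 genes, CBX5, which encodes HP1-alpha, had the lowest values and windows that spread from -3.83 to 0.02. Its first window on its own strand (chr12:54673855-54675955, minus) held 0 and 3 H3K9me3 reads in migrated cells of sets 1 and 2 and 2 in each set of non-migrated cells. The inputs held 30 and 72 reads in migrated cells and 11 and 65 in non-migrated cells. H3K9me3 was thus low in both fractions, with a log2 ratio to input of -3.09 ± 0.46 (SE, limma, adjusted p = 2.1e-06) and -3.92 in set 2 alone.

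The plus-strand window beside it (chr12:54671977-54674077) starts 22 bases away and shares 222 bases with it, so the pair covers both sides of 1 start region. It held 0 and 0 H3K9me3 reads in migrated cells and 1 and 2 in non-migrated cells, against 18 and 66 input reads in migrated cells and 18 and 63 in non-migrated cells. At the ratio of the TMM centre its input reads would correspond to 95.2 H3K9me3 reads over the 4 libraries, and 3 were counted. The log2 ratio was -3.83 ± 0.48 (SE, limma, adjusted p = 2.31e-07), lower than in all but 0.340% of tested windows. In migrated cells of set 2, where the count was 0, a floor of 3 reads puts the ratio at no more than 0.0769 of that at the centre.

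Other CBX5 windows did not share this level. The plus-strand window 3.54 kb downstream (chr12:54668415-54670515) held 2 and 27 H3K9me3 reads in migrated cells and 5 and 26 in non-migrated cells, against 18 and 41 and against 11 and 39 input reads. Its log2 ratio was 0.02 ± 0.35, and its ratio was above that of the first CBX5 window in the 3 pairs of libraries where both held H3K9me3 reads, by 1.14 to 4.14 on the log2 scale. Within 4 kb along CBX5 the level thus went from almost no reads to the TMM centre. The next plus-strand window, 17.6 kb downstream (chr12:54654399-54656499), was again low, with 0 and 3 H3K9me3 reads in migrated cells and 2 and 5 in non-migrated cells, against 15 and 32 and against 16 and 42 input reads (log2 -2.19 ± 0.44, limma adjusted p = 0.000123). The minus-strand window 24.3 kb downstream (chr12:54649593-54651693) held 3 and 18 H3K9me3 reads in migrated cells and 7 and 35 in non-migrated cells, against 20 and 57 and against 11 and 51 input reads, at log2 -0.06 ± 0.33. The 3 plus-strand windows lie opposite to the gene, so they need not be promoters of CBX5 itself.

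**Figure D3:**
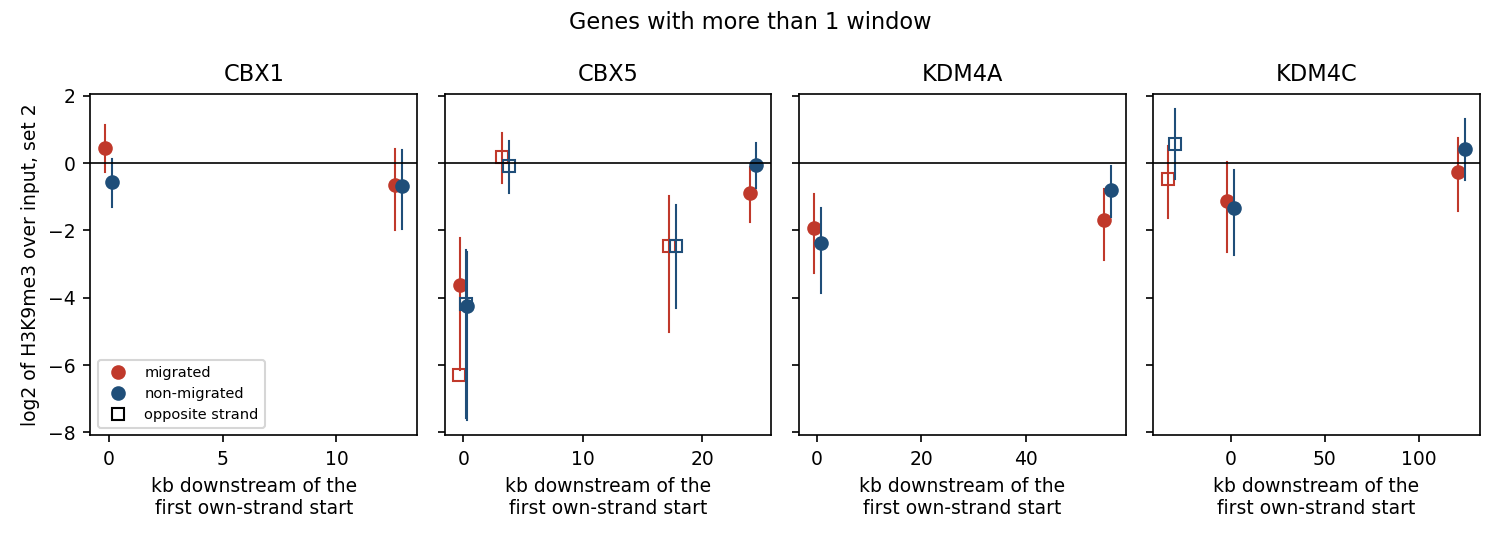
Log2 of H3K9me3 over input in set 2 at each window of CBX1, CBX5, KDM4A and KDM4C. The horizontal axis is the distance from the start position of the gene's first window on its own strand. Red is migrated and blue non-migrated, open squares are windows on the opposite strand, and bars are 95% exact counting intervals (none where 0 reads were counted). CBX5 lies at -3.61 in migrated and -4.24 in non-migrated cells at its first own start, at 0.17 and -0.10 at 3.54 kb, and at -2.46 and -2.47 at 17.6 kb.

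CBX1, which encodes HP1-beta, had no window that passed the test. Its first window (chr17:46178783-46180883, minus) held 3 and 33 H3K9me3 reads in migrated cells and 3 and 27 in non-migrated cells, against 15 and 41 and against 11 and 56 input reads. The log2 ratio was -0.03 ± 0.35 over both fractions. The second window, 12.7 kb downstream on the same strand (chr17:46166046-46168146), held 1 and 9 H3K9me3 reads in migrated cells and 3 and 10 in non-migrated cells, against 14 and 25 and against 11 and 23 input reads. All 4 of its ratios were below 0, but its log2 of -0.58 ± 0.42 did not pass the test (limma adjusted p = 0.253).

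For CBX3, which encodes HP1-gamma, RefSeq places the start on the plus strand 697 bases from the minus-strand start of HNRNPA2B1, a gene for an RNA-binding protein. A plus-strand window named HNRNPA2B1 (chr7:26238782-26240882) has the strand of CBX3, but whether it covers the CBX3 start was not tested. The window is not a member by name and was chosen after its values were seen. It held 0 and 4 H3K9me3 reads in migrated cells and 2 and 3 in non-migrated cells, against 22 and 45 and against 16 and 73 input reads, at log2 -2.75 ± 0.45 (limma adjusted p = 6.82e-06). The minus-strand window of HNRNPA2B1 lay at -3.64 ± 0.49.

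TRIM28 encodes the corepressor that couples KRAB zinc finger proteins to SETDB1 and HP1. Its 1 window (chr19:59053836-59055936, plus) held 0 and 9 H3K9me3 reads in migrated cells and 1 and 11 in non-migrated cells, against 21 and 65 and against 14 and 58 input reads. All 4 ratios were below 0 and H3K9me3 was lower than input at log2 -2.17 ± 0.41 (SE, limma adjusted p = 5.13e-05), with -2.02 in migrated and -1.87 in non-migrated cells of set 2. TRIM28 lies in the zinc finger gene cluster at the end of the long arm of chromosome 19, so its neighbours were examined.

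Within 100000 bases of TRIM28, 9 windows of other names were tested, of which 4 were lower than input and 2 were higher. The shares over all tested windows were 35.2% and 15.8%. The nearest window to the right, CHMP2A, an ESCRT subunit gene, lay at log2 -1.41 ± 0.42, and UBE2M, a NEDD8-conjugating enzyme gene, and MZF1, a zinc finger gene, lay at -1.58 ± 0.40 and -2.80 ± 0.43. The nearest window to the left, ZBTB45, lay at -0.50 ± 0.34 and did not pass. The 2 enriched windows were SLC27A5, a bile acid-CoA ligase gene left of ZBTB45, at 0.77 ± 0.33 (limma adjusted p = 0.049), and ZNF324B at 0.71 ± 0.30 (adjusted p = 0.0464). ZNF446 had a window on each strand, at -1.81 ± 0.38 on the plus strand and 0.76 ± 0.35 (adjusted p = 0.0665) on the minus strand.

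**Figure D4:**
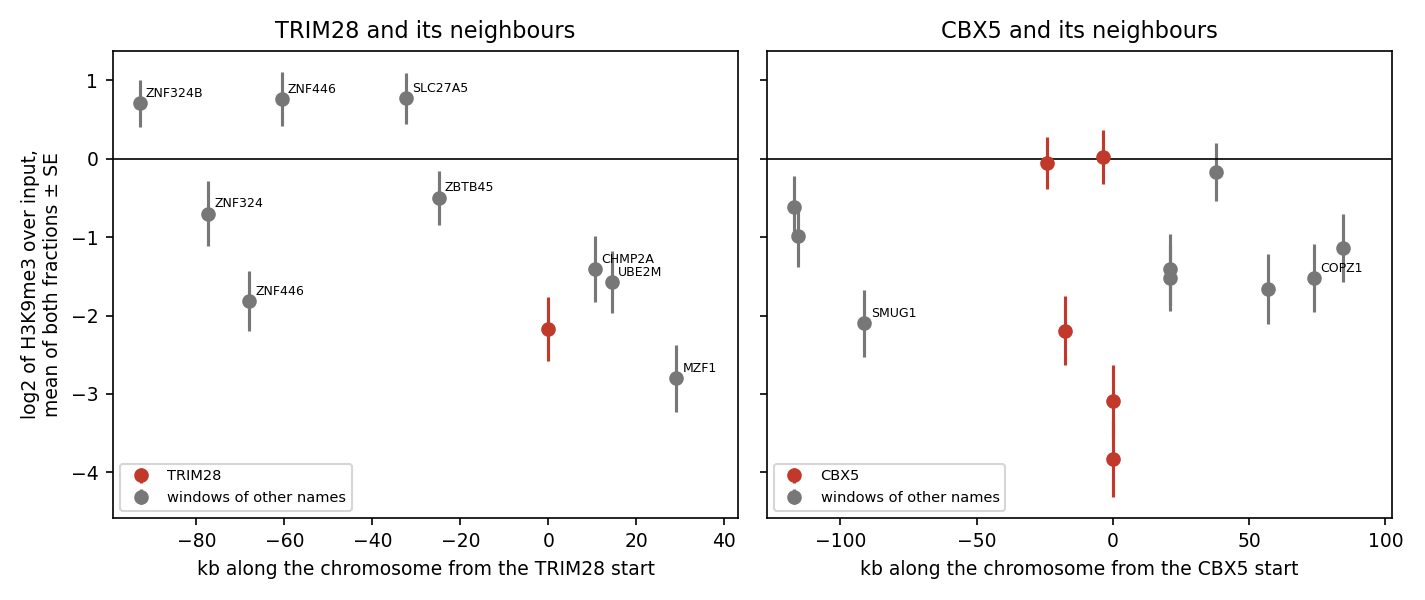
Log2 of H3K9me3 over input (mean of both fractions, ± limma SE) at windows within 100000 bases of a TRIM28 window (left) or a CBX5 window (right), against distance along the chromosome. Red points are windows of the named gene and grey points are windows of other names. TRIM28 (-2.17) stands among windows from -2.80 to 0.77. Around CBX5, 7 of the 9 tested windows were lower than input, against 35.2% of all tested windows.

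Around CBX5, 7 of 9 neighbouring windows were lower than input and 0 higher. The nearest on the right was a window named RP11-968A15.8 at log2 -1.52 ± 0.42, and the nearest on the left was SMUG1, a uracil-DNA glycosylase gene, at -2.10 ± 0.43. Around CBX1, 3 of 5 windows were lower and 0 higher, among them SNX11, a sorting nexin gene 2028 bases from its first window, at -2.35 ± 0.48. NFE2L1, a transcription factor gene on the left, lay at -2.17 ± 0.49. Over all 8 genes, 38 neighbouring windows were tested, of which 17 were lower and 2 higher than input, with a median of -0.83. Of all tested windows 35.2% were lower and 15.8% higher, with a median of -0.35. The members' own median of -0.93 was thus close to that of the windows around them.

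ATRX is a remodeller that deposits the histone variant H3.3 together with DAXX and itself reads H3K9me3. Its 1 window (chrX:77041602-77043702, minus) held 1 and 33 H3K9me3 reads in migrated cells and 5 and 42 in non-migrated cells, against 31 and 58 and against 17 and 47 input reads. The log2 ratio was -0.43 ± 0.34 and did not pass (limma adjusted p = 0.304). In set 2 alone it was 0.13, so the sign rests on the shallow set. The 1 neighbouring window, MAGT1, a magnesium transporter gene, lay at 0.66 ± 0.33 (adjusted p = 0.0866).

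Among the demethylases, KDM4B was the lowest. Its window (chr19:4967124-4969224, plus) held 0 and 4 H3K9me3 reads in migrated cells and 0 and 1 in non-migrated cells, against 18 and 63 and against 6 and 65 input reads. This came to 5 H3K9me3 reads in 4 libraries, where the ratio of the TMM centre would correspond to 89.4, and to log2 -3.29 ± 0.47 (SE, limma adjusted p = 1.32e-06). In set 2 the ratio was 0.107 of that at the centre in migrated cells (95% exact counting interval 0.0284 to 0.289) and 0.0214 in non-migrated cells (0.000533 to 0.123), and these intervals overlap. Of the 4 windows near it, UHRF1, which encodes a reader of H3K9 methylation that recruits DNMT1, and PLIN3, a lipid droplet protein gene, were lower, at -1.65 ± 0.42 and -1.63 ± 0.41.

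KDM4A, a tri- and dimethyl demethylase like KDM4B, had 2 windows on its own strand, both lower than input. The first (chr1:44113829-44115929, plus) held 0 and 8 H3K9me3 reads in migrated cells and 4 and 7 in non-migrated cells, against 13 and 54 and against 11 and 54 input reads. Its log2 ratio was -1.62 ± 0.44 (limma adjusted p = 0.00277), and the call was lost, with adjusted p of 0.0588 to 0.167, without either the H3K9me3 library of migrated cells in set 1, the H3K9me3 library of non-migrated cells in set 2 or the input of migrated cells in set 2. Without the first of these libraries the log2 ratio was -0.65. In set 2 both fractions were low, at -1.92 in migrated and -2.39 in non-migrated cells.

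The second KDM4A window, 55.7 kb downstream (chr1:44169495-44171595, plus), held 0 and 10 H3K9me3 reads in migrated cells and 3 and 22 in non-migrated cells, against 32 and 57 and against 9 and 54 input reads. Its log2 ratio was -1.61 ± 0.40 (limma adjusted p = 0.00104). Without the input of migrated cells in set 1 the adjusted p was 0.0507. In set 2 the first window was the lower of the pair in both fractions, and in set 1 the 2 windows held too few H3K9me3 reads to be ordered. The nearest window of another name, RP11-184I16.2, lay at -0.98 ± 0.42 (adjusted p = 0.0503), and 0 of the 3 windows around KDM4A passed.

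KDM4C had 3 windows, and whether any of them covers the RefSeq start of the gene was not tested. The first on its own strand (chr9:6778333-6780433, plus) held 0 and 7 H3K9me3 reads in migrated cells and 5 and 8 in non-migrated cells, against 16 and 27 and against 1 and 29 input reads. Its log2 ratio of -0.56 ± 0.51 did not pass over both sets and was -1.22 in set 2 alone. In non-migrated cells of set 1, 5 H3K9me3 reads stood against 1 input read, which put this ratio alone above 0. Of the 3 windows around KDM4C, RP11-390F4.10 was lower than input, at -1.05 ± 0.44, and the nearest, RP11-390F4.3 on the left, lay at -0.95 ± 0.42 (adjusted p = 0.0551).

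The KDM4C window 122 kb downstream (chr9:6900670-6902770, plus) held 0 and 12 H3K9me3 reads in migrated cells and 0 and 22 in non-migrated cells, against 22 and 25 and against 5 and 23 input reads. It passed the test at log2 -1.29 ± 0.43 (limma adjusted p = 0.0121), but set 2 alone gave 0.07, and both H3K9me3 libraries of set 1 were at 0 reads. With the set kept as a block but without a separate ChIP term for each set, an alternative added after the data were seen, it was -0.41 with an adjusted p of 0.391. The call was also lost with no filter (adjusted p = 0.0503), with no precision weights (0.0543), with 2 added to each count (log2 -0.36, 0.364) and with no replicate block (log2 -0.63, 0.328). It was lost as well without any 1 of 4 libraries, with adjusted p of 0.160 to 0.211: the H3K9me3 library of non-migrated cells or the input of migrated cells in set 1, and the H3K9me3 library of migrated cells or the input of non-migrated cells in set 2. The third window (chr9:6748914-6751014, minus) lies opposite to the gene, 31.3 kb before the start position of its first own-strand window. It held 2 and 12 H3K9me3 reads in migrated cells and 5 and 18 in non-migrated cells, against 14 and 29 and against 5 and 17 input reads, at 0.36 ± 0.39.

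KDM3A, which removes the first and second methyl groups, had the highest value of the 16 windows. Its window (chr2:86665770-86667870, plus) held 4 and 13 H3K9me3 reads in migrated cells and 6 and 17 in non-migrated cells, against 11 and 27 and against 11 and 23 input reads. The log2 ratio of 0.40 ± 0.38 did not pass (limma adjusted p = 0.385) and was -0.11 in set 2 alone. All 4 windows near KDM3A failed to pass as well, and among them the nearest on the right, CHMP3, another ESCRT subunit gene, lay at 0.57 ± 0.38 and the nearest on the left, SNORA19, a small nucleolar RNA gene, at -0.28 ± 0.37.

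For KDM4D, which acts on lysine 9 but not on lysine 36, RefSeq places the start on the plus strand 153 bases from the minus-strand start of CWC15, a splicing factor gene. The plus-strand window named CWC15 (chr11:94704845-94706945), again not a member by name and chosen after its values were seen, held 0 and 1 H3K9me3 reads in migrated cells and 1 and 4 in non-migrated cells. Its inputs held 9 and 40 reads in migrated cells and 9 and 39 in non-migrated cells, and the log2 ratio was -2.40 ± 0.48 (limma adjusted p = 0.000113). The minus-strand CWC15 window lay at -0.80 ± 0.39 (adjusted p = 0.0878).

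Within each fraction the picture was similar. In migrated cells 8 of the 16 windows were lower than input and 0 higher, where 28.3% of all windows were lower and 12.9% higher. In non-migrated cells 5 were lower and 0 higher, against 23.6% and 8.41% of all windows. The 5 windows that passed in both fractions were 3 of CBX5, KDM4B and TRIM28, and the 3 that passed in migrated cells alone were both KDM4A windows and the KDM4C window 122 kb downstream. Such a pass in 1 fraction is no difference between fractions, which was tested as such.

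For the difference between fractions (input-corrected H3K9me3, migrated minus non-migrated), 0 of the 16 windows passed limma's test at an adjusted p under 0.05, and 0% of all 36440 windows passed. At an unadjusted p under 0.05 there were 0 of the 16 windows and 1283 of all windows, and a quasi-Poisson model of the reads also gave 0 calls. All 16 intervals (95%) held a log2 change of 1 in at least one direction, and their widths ran from 2.09 to 3.83. In set 2 alone 8 windows were higher and 8 lower in migrated cells, with a median difference of -0.07, and with both sets 11 differences were negative with a median of -0.42. The median over all windows was -0.01.

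**Figure D5:**
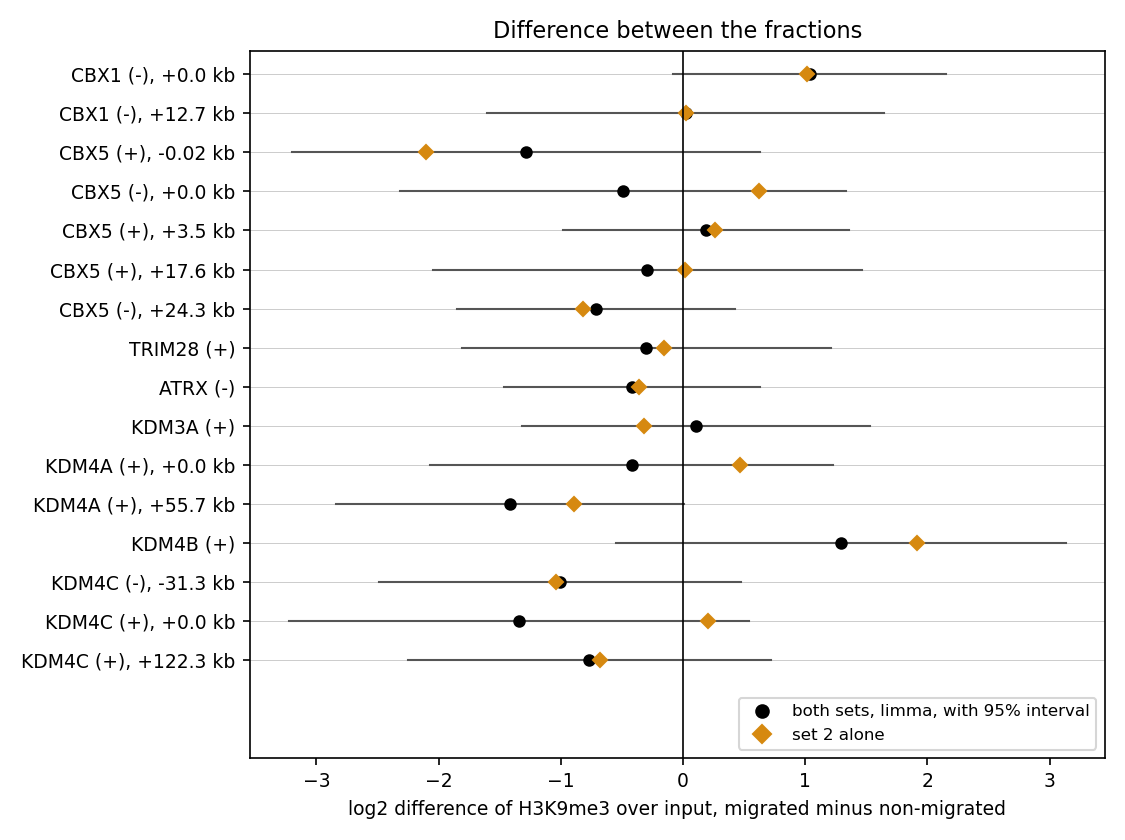
Log2 difference of H3K9me3 over input, migrated minus non-migrated, at the 16 windows. Black points with lines are the estimates over both sets with 95% limma intervals, and orange diamonds are set 2 alone. CBX1 (first window, 1.04) is higher in migrated cells in both sets, and all 16 adjusted p-values were 0.999.

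At the first CBX1 window the fractions lay on opposite sides of the TMM centre. The log2 ratio to input was 0.58 and 0.45 in migrated cells of sets 1 and 2, against -0.58 and -0.56 in non-migrated cells. The 95% exact counting intervals of the ratios overlapped between the fractions in both sets. In set 1 they were 0.246 to 4.68 in migrated and 0.107 to 2.27 in non-migrated cells. In set 2 they were 0.834 to 2.21 and 0.407 to 1.08. The difference was 1.04 ± 0.55 (SE, 95% interval -0.08 to 2.15), with an unadjusted p of 0.0679 and an adjusted p of 0.999 by limma. With the constants of the deposited tables in place of TMM, both fractions lay below 0, at -0.85 in migrated and -1.06 in non-migrated cells, and the difference was 0.21. The second KDM4A window differed in the other direction by -1.42 (interval -2.84 to 0.01, unadjusted p = 0.0512, limma). In set 2 alone the difference was -0.89, with -1.69 in migrated cells, against -0.80 in non-migrated cells. In set 1 the migrated library held 0 H3K9me3 reads there, which at a floor of 3 reads allows a ratio of up to 0.621 of that at the TMM centre. KDM4B differed by 1.29 (interval -0.55 to 3.13) on 4 H3K9me3 reads in migrated cells and 1 in non-migrated cells of set 2. None of these passed the correction over all windows.

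Among 42 other genes of the H3K9 methylation pathway, 34 had a window and 58 of their 59 windows were tested. Of these, 27 (46.6%) were lower than input and 6 (10.3%) higher, with a median log2 of -0.72. Of all tested windows 35.2% were lower and 15.8% higher, with a median of -0.35. By gene, 20 had a window that was lower, 5 had one that was higher, and PHF2 had both. The 6 lower windows with the smallest adjusted p were those of TRIM33, a relative of TRIM28, at -2.77 ± 0.42, ADNP, a zinc finger partner of HP1, at -2.69 ± 0.44, PPHLN1 on the opposite strand, at -2.90 ± 0.48, the remodeller HELLS, at -2.90 ± 0.48, the methyltransferase SUV39H2, at -2.49 ± 0.44, and the demethylase JHDM1D, at -2.18 ± 0.43. These levels belong to single windows. The other windows of PPHLN1 did not pass and lay from -0.70 to 0.54. Neither did the other windows of HELLS, at 0.05 ± 0.47, and JHDM1D, at 0.44 ± 0.32. The other windows of TRIM33 and ADNP were lower as well, at -1.36 ± 0.43 and -1.69 ± 0.40. Among the enriched windows were those of the methyltransferase EHMT1, at 1.29 ± 0.29 (limma adjusted p = 0.000451), LRIF1, an HP1-binding protein, at 1.28 ± 0.32, PHF2 on the opposite strand, at 1.21 ± 0.32, and PRDM2 on both strands, at 1.01 ± 0.28 and 0.84 ± 0.32. No window of the 8 HP1, KAP1, ATRX and demethylase genes reached the lowest of these enriched values.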

How the data were processed

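Reads of 8 libraries were counted by the authors in hg19 promoter windows. The submitters' processing notes list Bowtie2 2.2.9, SAMtools 1.3 and FastQC 0.11.5, and no counting program is given there. Per the labels' protocols, set 1 was deduplicated and set 2, a second biological replicate, was made with another kit. A set 1 library (H3K9me3, migrated) has conflicting replicate numbers in its labels, of which that of the title was used. The deposited values are log2 of read counts with an offset per library and 0.9 in place of 0; with the offset removed, 100% were whole numbers (tolerance 0.01). Most windows (36796) spanned 2100 bases, 2000 of them before the start.

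A count test had been planned; as the values came on a log2 scale, limma 3.58.1 (R 4.3.3) took its place. Log2 of reads plus 0.5 per TMM-scaled library (trimming 30% of ratios and 5% of levels) was fitted with precision weights. Tested were 36440 windows with at least 15 reads in total and, in at least 2 libraries, the equivalent of 10 reads at median library size. Terms were set, ChIP, set by ChIP, fraction and fraction by ChIP (2 residual and 33.1 prior degrees of freedom), each contrast being a coefficient of its own fit. The set served as a block, since the design text calls the sets paired; deviations of libraries of the same set correlated at 0.147 (H3K9me3) and 0.469 (input) across windows. Counting intervals are exact and cover counting error only. The fit was checked on simulated data, with changes between fractions placed in windows with a mean of at least 20 reads. It called 2% of 100 windows changed 2-fold and 28% of 100 changed 4-fold, with 0 false calls. Most differences of that size would thus be missed.

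The members and lists were chosen with earlier results of these data known. Named were all member windows, up to 6 pathway windows per direction (1 enriched window is counted but not reported here), the nearest neighbours within 100000 bases and neighbours called in the opposite direction. UBE2M, MZF1, ZNF446, PLIN3, RP11-390F4.10, HNRNPA2B1 and CWC15 were chosen after their values were seen. Gene strands and adjacent starts are from RefSeq (GRCh38.p14), with no coordinates converted; TRIM28 and ATRX were not matched.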

Additional observations from a re-analysis of the deposited data

Results flagged for a closer look

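At the first CBX1 window (chr17:46178783-46180883, minus strand) the ratio of H3K9me3 to input lay above the TMM centre in migrated cells in both sets, at log2 0.58 and 0.45, and below it in non-migrated cells in both sets, at -0.58 and -0.56. These sides depend on the scaling: with the constants of the deposited tables both fractions lay below 0, at -0.85 in migrated and -1.06 in non-migrated cells, and the difference was 0.21. With TMM the difference was 1.04 on the log2 scale with a limma adjusted p of 0.999 over all windows, so it was tested and did not pass. In set 1 each H3K9me3 library held 3 reads here.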

How the results depend on the processing

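Of all 36440 tested windows, 12821 were lower than input over both fractions, 10296 in migrated and 8605 in non-migrated cells. Among the 16 windows the count was 8 over both fractions, 8 in migrated and 5 in non-migrated cells. With a mean of at least 20 reads, 5754, 4677 and 3718 of all 19386 windows were lower. The count among the 16 was then 4, 4 and 3, because 8 of the 16 windows were left. Leaving out 1 library at a time gave 6 to 8 over both fractions, 2 to 9 in migrated cells (2 without the migrated input of set 2) and 2 to 6 in non-migrated cells (3 without the non-migrated input of set 2, 2 without the non-migrated H3K9me3 library of set 2). Windows called higher stayed at 0 except in non-migrated cells, with 0 to 1: without the migrated H3K9me3 library of set 1, the opposite-strand KDM4C window passed at log2 1.11. The KDM4C window 122 kb downstream changed sign in set 2 alone, to 0.0715, where the 0 reads of set 1 are left out. Without the replicate block the counts among the 16 were 7, 7 and 6, against 12307, 8638 and 6856 of all 36440 windows. In that fit 0 of all windows differed between fractions. The authors' constants moved the median of all windows from -0.35 to -1.30 and the counts among the 16 to 11, 12 and 5. With these constants 19685, 19911 and 8440 of all 36440 windows were lower. Without TMM the median of all windows was -0.23. Without the migrated input of set 2, fewer of all windows were lower in migrated cells as well. The counts among the 16 windows thus have to be read beside those of all windows. Under every alternative with all 8 libraries, 0 of the 16 windows differed between fractions. Of all windows 0 differed in these fits, except 1 that was higher in migrated cells with 2 added to each count. With 1 library left out, some of all windows passed for this difference in some of the fits. These are not counted here, since the group concerned then had 1 library. With 0 H3K9me3 reads in both fractions of a set, or in both sets of a fraction, the quasi-Poisson model gave no finite estimate. Such windows have no value under it. They include the lowest window (CBX5, chr12:54671977-54674077), KDM4B and the KDM4C window 122 kb downstream. Where 1 library of a group was left out, the remaining one was assumed to vary like the others. Depth in set 1, at 16 and 52 H3K9me3 reads over the 16 windows, limits every value for which both sets were used.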
